A study of Mus musculus with 29 samples.

Results

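Expression of 10 genes that organise lymphoid follicles was followed in the colon of mice with dextran sodium sulphate (DSS) colitis: Cxcl13, Cxcr5, Cr2, Fcer2a, Ccl19, Ccr7, Lta, Ltb, Tnfsf13b and Tnfsf11. A gene was included through the probe sets that the array annotation gives to that symbol alone, and where there were several, the probe set of highest mean over all arrays was used. All 10 genes were found, with 14 probe sets, among 19938 genes with a symbol of their own and 35511 probe sets in all. Ccl19 had 5 of the 14 probe sets. Their values correlated at 0.998 to 1 across the arrays, so near-identical copies of that gene cannot be told apart here.

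All mice were female C57BL6J. The labels give an age of 6 weeks, which per the methods was that at the start of the study, and all mice were killed at the same age. Each of the 29 arrays held colon RNA of 1 mouse. The 5 control mice drank normal water. The 4 mice with acute colitis received DSS, which damages the colonic epithelium, for 7 days and had no recovery period. A cycle was 7 days of DSS followed by 2 weeks of normal water, and 5 mice each went through 1, 2 or 3 cycles. Per the methods, the DSS of the first course was weaker than that of later ones. A last group of 5 mice, named recovery here, had 2 cycles and then 3 more weeks of normal water. A piece of the most infiltrated colon had been frozen for RNA, so the members' levels are those of a whole tissue piece and not of a follicle. In such bulk samples, fewer cells of a type and less RNA per cell cannot be told apart. The values are log2 expression values that the authors computed by RMA, which adjusts for background and gives all arrays the same distribution, so a difference of 1 is a 2-fold change.

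The colon wall holds small lymphoid follicles, and in chronic inflammation further B cell aggregates can form there. Lymphotoxin, a ligand of the TNF family built from the products of Lta and Ltb, acts on stromal cells, which in turn secrete the chemokines CXCL13 and CCL19. CXCL13 draws B cells that carry its receptor CXCR5 into the follicle, while CCL19 draws T cells and dendritic cells that carry CCR7. Cr2 (complement receptor 2, CD21) and Fcer2a (the low affinity IgE receptor, CD23) are made by mature B cells and by follicular dendritic cells, Tnfsf13b encodes the B cell survival factor BAFF, and Tnfsf11 encodes RANKL, which is needed for lymph node development and for the M cells above gut follicles.

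A stretch around motif matches is shown only where it lay wholly outside the span of its gene, which held for Ltb alone. The Ltb promoter was the only one of the listed member promoters with a match to the NF-kB consensus. That consensus was searched by that name on both strands in the 250 bases before each start. The Ltb promoter also held the STAT motif TTCNNNGAA. The stretch of 155 bases, from RefSeq (GRCm38.p6, plus strand, chr17:35194305-35194459), covers positions -202 to -48 from the start. Capitals mark the STAT match at -172 to -164 and the NF-kB match, on the minus strand, at -87 to -78.
Ltb promoter: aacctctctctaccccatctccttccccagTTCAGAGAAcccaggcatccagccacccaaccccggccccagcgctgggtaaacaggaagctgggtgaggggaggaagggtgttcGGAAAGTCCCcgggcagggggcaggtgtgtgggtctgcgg
For 8 of the 10 members 11 promoters were listed, and none for Cxcr5 and Ccr7. Of these 11 promoters, 1 held the NF-kB consensus, which 7.25% of 32851 promoters held. The STAT motif was found in 2 of the 11, of Ltb and Lta, against 7.02% of all promoters. The AP-1 motif TGACTCA was in 2 of the 11, of Fcer2a and Tnfsf13b, against 4.46%. The octamer ATGCAAAT, a motif of B cell genes, was found in 0 of the 11 and in 1.6% of all promoters.

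The arrays were split into 2 sets that the labels do not name. The split used 1 probe set, chosen for the widest gap between neighbouring arrays among the 12101 with no gene listed. It was at or below 8.14 in 14 arrays, called low arrays here. In the other 15, called high arrays, it was at or above 11.09. Because it was picked for its gap, it cannot show whether the arrays differ as a whole, which was not tested. All control and 1 cycle arrays were low, all 3 cycles and recovery arrays were high, and acute colitis (2 low, 2 high) and 2 cycles (2 low, 3 high) held both kinds. For 3 cycles and recovery against control, the set and the group can be told apart only through the acute colitis and 2 cycles arrays. For the main comparisons, values with the set as a covariate or within 1 set are therefore given. The array medians were 6.02 to 6.14 and the correlation between arrays was 0.943 to 0.992. The colonic epithelium list of 8 genes had a mean of 11.16 to 11.84 in every array, near the bright end of the scale, as colon tissue should.

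The members differed widely in brightness. Cxcl13 had a mean log2 value of 9.75, which was above 94.3% of all probe sets, while Lta at 5.4 and Cxcr5 at 5.7 were below the median of all probe sets, at the 36.1 and 42.5 percentiles. The others lay between 6.11 (Cr2) and 7.64 (Tnfsf13b). Levels of different probe sets are not comparable as amounts, so these values describe only how far each probe set stood above the dim end of the array.

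**Figure D1:**
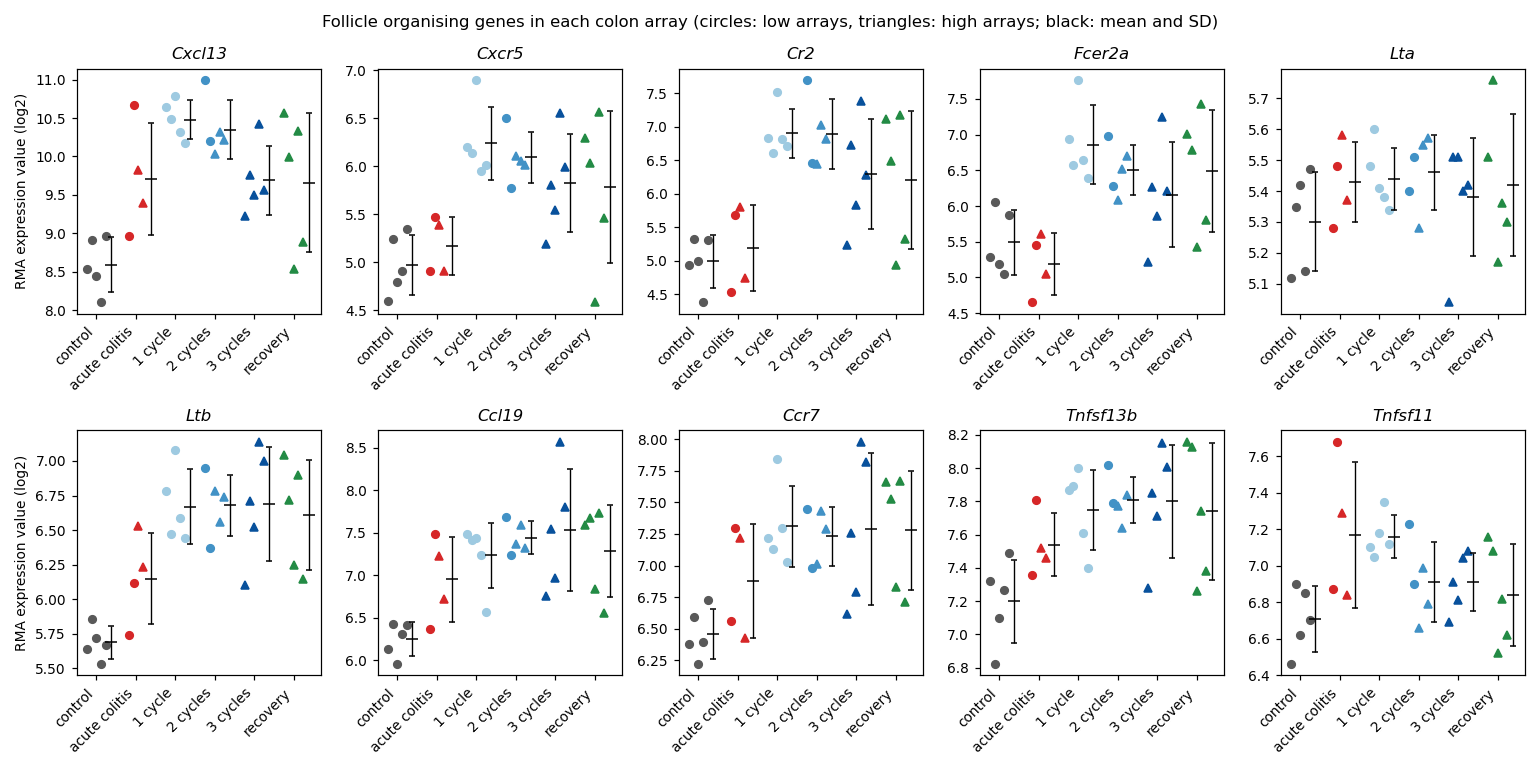
RMA expression value (log2, y axis) of each of the 10 genes in the 29 colon arrays, by group (x axis); each point is 1 mouse, circles are low and triangles high arrays, and the black marks are the group mean and SD. Cxcl13 lies at 8.1 to 8.97 in controls and at 10.17 to 10.79 after 1 cycle, whereas Lta stays between 5.04 and 5.76 in all groups.

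In the fit without a covariate, most members passed the adjusted p for a higher level than in controls in each chronic group. Few did in acute colitis. A member was called when its adjusted p in limma, computed over all 35511 probe sets, was under 0.05 and its levels differed more than 2-fold. After 1 cycle 4 members were called higher, after 2 cycles 4, after 3 cycles 4 and in recovery 3, while in acute colitis 1 was. Over all probe sets the share called higher was 0.870% after 1 cycle, 0.907% after 2 cycles, 1.02% after 3 cycles, 1.08% in recovery and 1.38% in acute colitis. With the adjusted p alone, 8, 6, 7, 6 and 2 members passed in the same order, beside 3.40%, 3.08%, 8.81%, 6.05% and 11.4% of all probe sets. In a fit with the array set as a covariate the calls were 1 in acute colitis, 4 after 1 cycle, 2 after 2 cycles, 0 after 3 cycles and 0 in recovery. No member was called lower than control in any group. The median log2 difference of the 10 members from control was 0.98, 1.01, 0.84 and 0.87 after 1, 2 and 3 cycles and in recovery, and 0.38 in acute colitis, where the medians over all probe sets were between -0.01 and 0.04. The members called were Cxcl13 in all 5 comparisons, Cr2 in the 4 that follow a recovery period, Cxcr5 after 1 and 2 cycles, Fcer2a after 1 cycle, Ccl19 after 2 and 3 cycles and in recovery, and Ltb after 3 cycles.

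**Figure D2:**
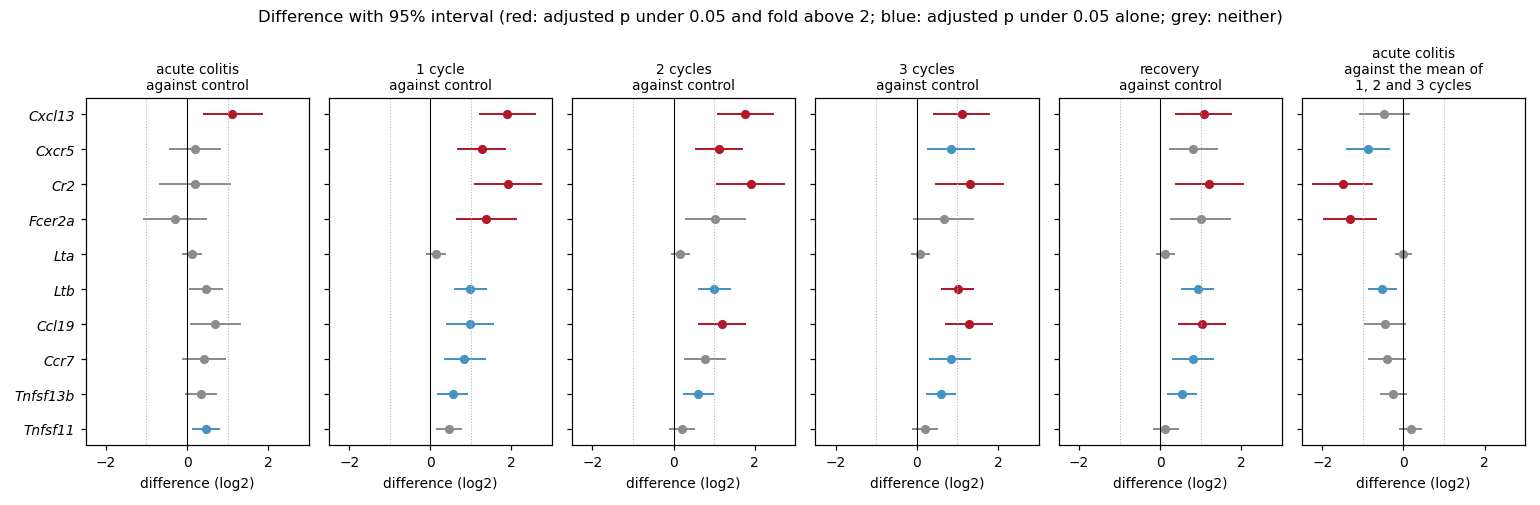
Difference in mean log2 value (x axis) of each gene (y axis) with its 95% interval for the 5 comparisons with control and for acute colitis against the mean of 1, 2 and 3 cycles; dotted lines mark a 2-fold change. Cxcl13 is red in every comparison with control, Lta is grey throughout, and in the last panel Cr2 (-1.5) and Fcer2a (-1.32) are red on the lower side.

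Cxcl13, the chemokine that draws B cells, had a higher mean than in controls in every colitis group. It was called in each by the fit without the array set. In acute colitis, after 3 cycles and in recovery the call was lost when certain single arrays were left out. Its log2 values in the 5 controls were 8.53, 8.91, 8.44, 8.1 and 8.97 (mean 8.59 ± 0.36, SD, n = 5). After 1 cycle they were 10.64, 10.49, 10.79, 10.32 and 10.17, and after 2 cycles 11, 10.2, 10.03, 10.32 and 10.22. All 10 of these arrays lay above every control. The log2 difference from control was 1.89 (SE 0.33, 3.71-fold, adjusted p = 0.000772) after 1 cycle and 1.77 (SE 0.33, 3.4-fold, adjusted p = 0.00152) after 2 cycles.

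After 3 cycles Cxcl13 was at 9.22, 9.76, 9.5, 10.42 and 9.57, again above every control, with a difference of 1.1 (SE 0.33, adjusted p = 0.0203) that did not pass without G2 (adjusted p = 0.0631) or control L1 (adjusted p = 0.0559). In acute colitis the values were 8.97, 10.67, 9.82 and 9.39. Of these 4 arrays, 3 lay above every control, and the difference was 1.12 (SE 0.35, 2.18-fold, adjusted p = 0.0192). This call rested on single arrays, since the adjusted p was 0.104 without acute colitis array B3, 0.0526 without B4 and 0.053 without control L1, and within the low arrays the difference was 1.23 (adjusted p = 0.0578). With the array set as a covariate, Cxcl13 kept a difference of 1.28 in acute colitis (adjusted p = 0.0239), 1.89 after 1 cycle (adjusted p = 0.000883) and 1.96 after 2 cycles (adjusted p = 0.00797). The same fit gave 1.42 after 3 cycles (SE 0.48, adjusted p = 0.164), so this difference was larger but no longer passed.

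Cxcr5, the receptor for CXCL13 on B cells and follicular helper T cells, was at 4.59, 5.24, 4.79, 4.91 and 5.34 in controls. In acute colitis it was at 4.91, 5.47, 5.39 and 4.91, which overlapped the controls (difference 0.2, SE 0.3, adjusted p = 0.683). After 1 cycle it reached 6.2, 6.14, 6.9, 5.95 and 6.01. Every one of these lay above every control, with a difference of 1.27 (SE 0.28, 2.41-fold, adjusted p = 0.00568). After 2 cycles the values were 6.5, 5.77, 6.1, 6.05 and 6.01, also above every control, and the difference of 1.11 (adjusted p = 0.0157) did not pass without control A1 (adjusted p = 0.052), without array D4 (adjusted p = 0.0512) or with the array set as a covariate (1.15, adjusted p = 0.0843). After 3 cycles the difference was 0.84 (adjusted p = 0.0364), under 2-fold, and 0.91 with an adjusted p of 0.342 when the array set was a covariate.

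Cr2, the complement receptor that helps to hold antigen in the follicle, had the widest range of the members over the groups. It was at 4.93, 5.33, 5, 4.38 and 5.31 in controls and at 4.54, 5.69, 5.8 and 4.75 in acute colitis. Those 2 groups overlapped (difference 0.2, SE 0.42, adjusted p = 0.781). After 1 cycle it was at 6.83, 6.61, 7.52, 6.82 and 6.71, and after 2 cycles at 7.7, 6.46, 6.44, 7.02 and 6.81. Each of these 10 arrays stood above every control and acute colitis array. The log2 difference from control was 1.91 (SE 0.4, 3.76-fold, adjusted p = 0.00378) and 1.9 (SE 0.4, 3.72-fold, adjusted p = 0.00432). Within the low arrays it was 1.91 (adjusted p = 0.00318) and 2.09 (adjusted p = 0.0229), so these rises of Cr2 were as large within 1 array set. After 3 cycles Cr2 was at 5.24, 6.73, 5.83, 7.38 and 6.28, with array F1 inside the control range. The difference there was 1.3 (SE 0.4, adjusted p = 0.0249), and it did not pass without A1, F3, G2 or L1 (highest adjusted p = 0.0812) or with the array set as a covariate (1.4, adjusted p = 0.294).

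Fcer2a, which encodes CD23 on mature B cells and follicular dendritic cells, was the member that was lowest in acute colitis and not in controls. It was at 5.28, 6.05, 5.19, 5.05 and 5.88 in controls and at 4.65, 5.46, 5.61 and 5.05 in acute colitis, a difference of -0.3 (SE 0.37) that did not pass (adjusted p = 0.621). After 1 cycle it was at 6.94, 6.58, 7.77, 6.64 and 6.39, all above the controls, with a difference of 1.37 (SE 0.35, 2.59-fold, adjusted p = 0.0166). Array K1 was the highest of that group, and without it the difference was 1.15 (adjusted p = 0.0532). After 2 cycles all 5 arrays (6.09 to 6.98) were above the controls, but the difference of 1.02 (SE 0.35) had an adjusted p of 0.0924.

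The lymphotoxin genes behaved unlike each other. Ltb, whose product anchors lymphotoxin in the membrane, was at 5.64, 5.86, 5.72, 5.53 and 5.67 in controls. After 1 cycle it was at 6.78, 6.47, 7.08, 6.59 and 6.44, after 2 cycles at 6.95, 6.37, 6.78, 6.56 and 6.74, and after 3 cycles at 6.1, 6.71, 6.52, 7.14 and 7. In recovery it was at 7.04, 6.72, 6.25, 6.9 and 6.15. All arrays of these 4 groups lay above every control, which held for no other member but Ccl19. The log2 difference was 0.99 (SE 0.18, adjusted p = 0.00157), 1 (SE 0.18, adjusted p = 0.00152), 1.01 (SE 0.18, adjusted p = 0.00069) and 0.93 (SE 0.18, adjusted p = 0.00197). The fold changes of 1.98, 1.99, 2.01 and 1.9 lie so close to 2 that the call after 3 cycles alone reflects the threshold and not a difference between the groups. In acute colitis Ltb was at 5.74, 6.12, 6.53 and 6.23, and the difference of 0.47 (SE 0.2) had an adjusted p of 0.0874. With the array set as a covariate, Ltb was 0.79 higher after 3 cycles (adjusted p = 0.168) and 0.7 higher in recovery (adjusted p = 0.28).

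Lta, the subunit shared by the soluble and the membrane form of lymphotoxin, was dim and nearly flat. It lay at 5.12 to 5.47 in controls, 5.28 to 5.58 in acute colitis, 5.34 to 5.6 after 1 cycle, 5.28 to 5.57 after 2 cycles, 5.04 to 5.51 after 3 cycles and 5.17 to 5.76 in recovery. Every group overlapped the controls, and the largest log2 difference was 0.16 after 2 cycles (SE 0.1, 95% interval -0.05 to 0.37, adjusted p = 0.437). The upper bounds of its intervals against control, between 0.29 and 0.37, exclude a 2-fold rise of this probe set's value, although RMA values near the dim end of the array understate changes.

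Ccl19, the chemokine of the T cell zone, was at 6.13, 6.42, 5.95, 6.31 and 6.41 in controls and 6.37, 7.48, 7.22 and 6.72 in acute colitis. Of the acute colitis arrays 3 were above every control, with a difference of 0.7 (SE 0.29, adjusted p = 0.0859). After 1 cycle it was at 7.48, 7.41, 7.44, 7.24 and 6.57, and after 2 cycles at 7.68, 7.24, 7.36, 7.59 and 7.32. These lay above every control, and the difference was 0.98 (SE 0.28, 1.98-fold, adjusted p = 0.0278) and 1.19 (SE 0.28, 2.29-fold, adjusted p = 0.00862). With the array set as a covariate the latter had an adjusted p of 0.0683. After 3 cycles the values were 6.75, 7.54, 6.97, 8.57 and 7.8, with a difference of 1.28 (SE 0.28, 2.43-fold, adjusted p = 0.00247), and 1.28 with an adjusted p of 0.14 when the array set was a covariate. Ccr7, the receptor for CCL19 on naive T cells and migrating dendritic cells, moved by less. Its controls were at 6.22 to 6.73, and its values were 7.03 to 7.84 after 1 cycle, 6.98 to 7.45 after 2 cycles and 6.62 to 7.98 after 3 cycles. The differences were 0.84 (adjusted p = 0.0316), 0.77 (adjusted p = 0.0593) and 0.83 (adjusted p = 0.0179), all under 2-fold, and in acute colitis (6.43 to 7.3) 0.41 (adjusted p = 0.269). The difference after 3 cycles was 0.86 (adjusted p = 0.281) with the array set as a covariate.

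The other TNF family ligands showed smaller differences. Tnfsf13b (BAFF) was at 6.82 to 7.49 in controls, 7.4 to 8 after 1 cycle, 7.64 to 8.02 after 2 cycles and 7.28 to 8.15 after 3 cycles, with differences of 0.55 (adjusted p = 0.0469), 0.61 (adjusted p = 0.0302) and 0.6 (adjusted p = 0.0155). With the array set as a covariate the last 2 were 0.69 (adjusted p = 0.086) and 0.73 (adjusted p = 0.172). In acute colitis it was at 7.36 to 7.81 (difference 0.34, adjusted p = 0.189). Tnfsf11 (RANKL) was the member whose mean was highest in acute colitis. It was at 6.46, 6.9, 6.62, 6.85 and 6.7 in controls and 6.87, 7.68, 7.29 and 6.84 in acute colitis, a difference of 0.46 (SE 0.15, 1.38-fold, adjusted p = 0.0266). Acute colitis arrays B3 and B4 carried this difference, and the other 2 lay within the control range. After 1 cycle Tnfsf11 was at 7.05 to 7.35, above every control, and the difference of 0.46 (SE 0.14) had an adjusted p of 0.0516. After 2 and 3 cycles and in recovery its differences were 0.21, 0.2 and 0.13, with adjusted p from 0.347 to 0.594.

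Acute and chronic colitis were compared directly. The mice with 1 cycle had a single course of DSS, as had those with acute colitis, whereas the other chronic groups had repeated courses. Against the mean of 1, 2 and 3 cycles, 2 of the 10 members were called lower in acute colitis and 0 higher, beside 0.631% of all probe sets called lower. With the adjusted p alone 4 members were lower, beside 5.66%. The log2 difference was -1.5 for Cr2 (SE 0.36, adjusted p = 0.00513) and -1.32 for Fcer2a (SE 0.31, adjusted p = 0.00532). Cxcr5 (-0.88, SE 0.25, adjusted p = 0.0192) and Ltb (-0.53, SE 0.16, adjusted p = 0.0335) passed the adjusted p but not the fold. With the array set as a covariate these 4 passed again, at -1.5, -1.32, -0.88 and -0.52. Cxcl13 differed by -0.47 (95% interval -1.06 to 0.13, adjusted p = 0.376), so a difference as large as that of Cr2 lies outside its interval. Tnfsf11 (0.18, 95% interval -0.09 to 0.44) and Lta (0, 95% interval -0.19 to 0.19) were not shown to differ. The median over the 10 members was -0.46, against 0.03 over all probe sets.

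The recovery arrays differed among themselves for several members. Against control, Cxcl13 (1.07, SE 0.33, adjusted p = 0.0318), Cr2 (1.21, SE 0.4, adjusted p = 0.0452) and Ccl19 (1.03, SE 0.28, adjusted p = 0.0151) were called. Cxcl13 was at 10.56, 9.99 and 10.33 in arrays M1, M3 and N2, and at 8.54 and 8.88 in M5 and N3, which lie within the control range. Cr2 was at 7.11, 6.49 and 7.18 in the same 3 arrays, and at 4.93 and 5.32 in the other 2. Cxcr5 ran from 4.58 in M5, under the lowest control, to 6.56 in N2. All 10 members were below the recovery mean in M5 and in N3. Leaving out M1, M3, N2 or control A5 left 0 members called, leaving out control A1 or L1 left 1, leaving out M5 gave 6 and leaving out N3 gave 5. With the array set as a covariate 0 members were called, beside 71 of the 35511 probe sets called higher. In that fit Cxcl13 was at 1.39 (adjusted p = 0.217), Cr2 at 1.31 (adjusted p = 0.404) and Ccl19 at 1.03 (adjusted p = 0.309).

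Recovery was also set against 2 cycles, which lacked the 3 more weeks of normal water. Since all mice were killed at the same age, the recovery mice also began DSS at a younger age. In this comparison 0 members were called by limma, with the fold or without it, beside 0.161% and 0.279% of all probe sets in either direction, and 1 member, Cxcl13, had an unadjusted p under 0.05. Cxcl13 differed by -0.69 (95% interval -1.37 to -0.02, adjusted p = 0.554) and Cr2 by -0.68 (95% interval -1.51 to 0.14, adjusted p = 0.658). The other members differed by -0.3 (Cxcr5) to 0.05 (Ccr7). Within the high arrays the differences of Cxcl13 and Cr2 were -0.53 and -0.56 (adjusted p = 0.922 and 0.953). The intervals of Cxcl13 and Cr2 leave room for a 2-fold fall, and for Cr2 also for no change.

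When the 6 groups were placed in order of their means, controls were lowest for 9 members and acute colitis for 1, Fcer2a. The highest group was 1 cycle for 5 members, 2 cycles for 2, 3 cycles for 2 and acute colitis for 1. For Cxcl13 the order was control (8.59), recovery (9.66), 3 cycles (9.69), acute colitis (9.71), 2 cycles (10.35) and 1 cycle (10.48). Of the 50 neighbouring pairs of groups over the members, 1 passed, the step of Cxcl13 from control to recovery. With the array set as a covariate that step was 1.39 and did not pass in limma (adjusted p = 0.217). The other 49 did not differ beyond their spread (limma's adjusted p from 0.0859 to 0.999). Groups further apart in the order did differ for some members. After 1 cycle Cxcr5, Cr2 and Fcer2a were higher than in acute colitis by 1.07, 1.71 and 1.67 (adjusted p = 0.0325, 0.0169 and 0.0087), and after 2 cycles Cr2 and Fcer2a were higher by 1.69 and 1.32 (adjusted p = 0.0103 and 0.024). In recovery Fcer2a was 1.3 higher than in acute colitis (adjusted p = 0.023). After 3 cycles no member passed against acute colitis in limma, with Cr2 at 1.1 (adjusted p = 0.1) and Fcer2a at 0.97 (adjusted p = 0.101). These comparisons of single later groups with acute colitis were not fitted with the array set as a covariate.

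Within groups the members went up and down together from mouse to mouse. The deviations of each gene from its group means were correlated over the 29 arrays for all 45 pairs, which takes out the group differences. All 45 values of Pearson's r were above 0, with a median of 0.73, and 43 passed a two-sided permutation test over the 45 pairs after Benjamini-Hochberg adjustment, as did 40 for Spearman's rho. The highest r was 0.94 for Cr2 and Fcer2a (rho 0.93, permutation p = 1e-05, the smallest that 100000 permutations can give, adjusted p = 3e-05). Leaving out the 2 arrays farthest from the median of Cr2 gave 0.91. Cxcl13 and Cr2 gave 0.92 (rho 0.93), and Ccl19 and its receptor Ccr7 0.89 (rho 0.9). The lowest r was 0.44 for Lta and Ltb (rho 0.32, permutation, adjusted p = 0.0564). For comparison, the median r of Cxcl13 with the 19937 other genes was -0.02, and 4.11% of them reached 0.5. Whether a sampled piece held a follicle is not given in the sources used here, and what the shared movement follows was not tested.

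The joint movement was seen in both sets of arrays. Within the 14 low arrays all 45 r were above 0 with a median of 0.65 (0.12 to 0.92), and 16 passed the permutation test. Within the 15 high arrays the median was 0.82 (0.52 to 0.97) and 38 passed. Single arrays stood out for nearly all members. In the 3 cycles group, F1 was the lowest array for all 10 members and G2 the highest for 8, on average -0.62 and 0.63 from the group mean. In the 2 cycles group D4 was the highest for 9, after 1 cycle K1 was the highest for 7 and K3 the lowest for 7, and in acute colitis B2 was the lowest for 7.

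**Figure D3:**
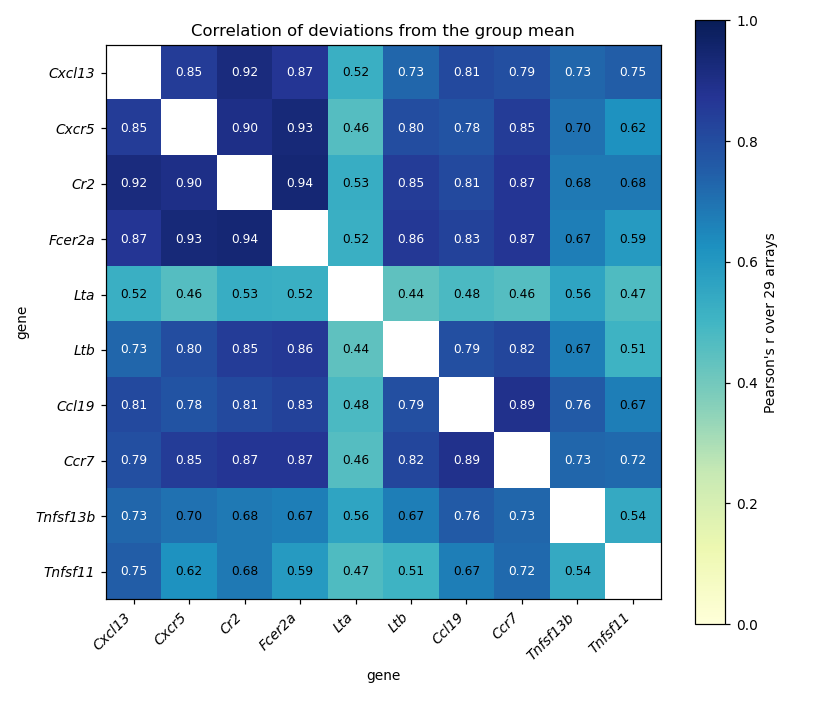
Pearson's r (colour and number) between the deviations of each pair of genes from their group means over the 29 arrays. All values are above 0, Cr2 with Fcer2a reaches 0.94, and the palest row and column are those of Lta, with 0.44 against Ltb.

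B cell genes moved with the members. Of 10 genes on a B cell list that holds no member, 9 had a probe set of their own. In each colitis group after recovery periods most of them were called higher (7 after 1 cycle, 7 after 2 cycles, 6 after 3 cycles and 6 in recovery), and 0 were in acute colitis. The calls here and for all other gene lists come from the fit without the array set as a covariate. They therefore do not separate the set from the group after 3 cycles and in recovery, where all arrays were high and all controls low. Ms4a1, which encodes CD20, was higher by 2.19 after 1 cycle (adjusted p = 0.0041) and by 0.31 in acute colitis (adjusted p = 0.706), and Cd79a and Cd79b, the signalling chains of the B cell receptor, were higher by 1.86 and 1.87 after 1 cycle (adjusted p = 0.00667 and 0.00183). The mean level of the list in an array was 5.35 to 6.22 in controls, 5.4 to 6.53 in acute colitis, 6.99 to 7.82 after 1 cycle, 6.94 to 7.93 after 2 cycles, 6.24 to 7.91 after 3 cycles and 6.19 to 7.83 in recovery. Its lowest values after 3 cycles and in recovery were those of F1 (6.24), M5 (6.19) and N3 (6.23), the arrays in which the members were low. The deviations of Cr2 from its group means correlated with those of the list at 0.98, those of Fcer2a at 0.96, Cxcr5 and Cxcl13 at 0.92, Ccr7 at 0.9, Ltb at 0.89, Ccl19 at 0.86, Tnfsf13b at 0.72, Tnfsf11 at 0.69 and Lta at 0.53, all over 29 arrays and given as a description.

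Some members stood differently to the B cell list in acute colitis than in controls. The log2 value of Cxcl13 less the list mean of the same array was 2.75 to 2.96 in controls and 3.29 to 4.27 in acute colitis, with no overlap. It was 2.98 to 3.39 after 1 cycle, which overlapped acute colitis, 2.9 to 3.26 after 2 cycles, 2.41 to 2.99 after 3 cycles and 2.35 to 2.73 in recovery. For Fcer2a it was -0.34 to -0.08 in controls and -0.94 to -0.65 in acute colitis, again with no overlap but in the other direction. This was not particular to acute colitis. It was -1.04 to -0.57 after 2 cycles and -1.03 to -0.66 after 3 cycles, also below every control. After 1 cycle it was -0.6 to -0.04 and in recovery -0.82 to -0.34. For Cr2 the same quantity was -0.96 to -0.53 in controls and -0.95 to -0.71 in acute colitis. After 1 cycle it was -0.49 to -0.28, above every control. It was -0.69 to -0.23 after 2 cycles, -1 to -0.44 after 3 cycles and -1.26 to -0.6 in recovery. This quantity was chosen after the values were seen and is given without a test.

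**Figure D4:**
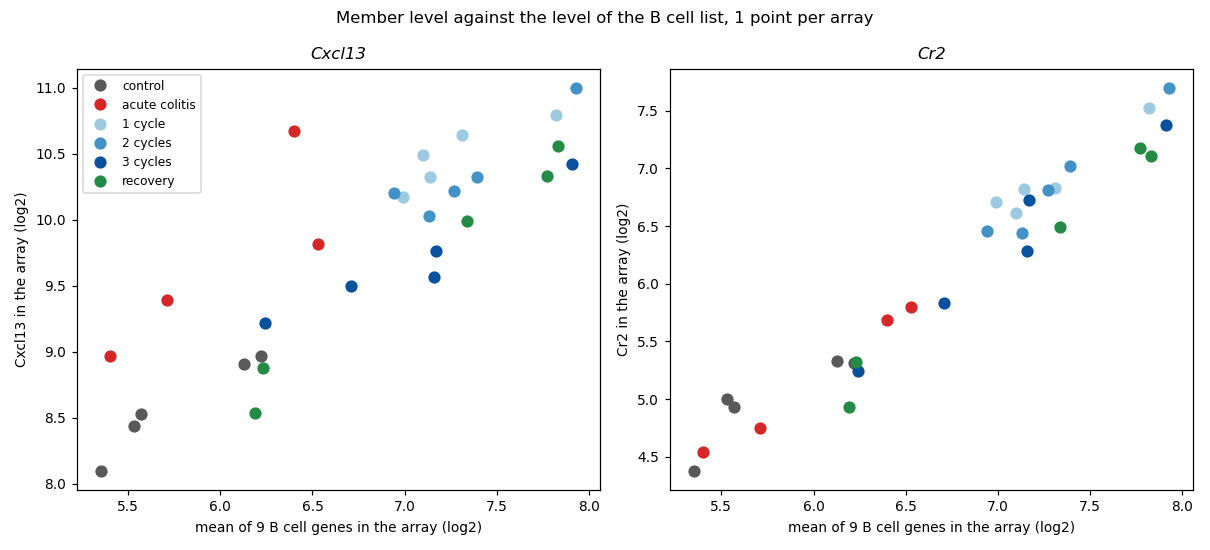
Log2 value of Cxcl13 (left) and Cr2 (right) on the y axis against the mean log2 value of 9 B cell genes on the x axis, 1 point per array, coloured by group. For Cxcl13 the 4 acute colitis arrays lie higher than the controls relative to the list (3.29 to 4.27 against 2.75 to 2.96), for Cr2 they overlap them, and recovery arrays M5 and N3 lie near the controls.

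Other cell type lists moved in their own ways. Follicular dendritic and reticular stroma genes, 8 of 9 measured, were called higher for 4 in acute colitis, 3 after 1 cycle, 4 after 2 cycles, 2 after 3 cycles and 3 in recovery. Vcam1, an adhesion molecule of such stroma and of activated endothelium, was higher in every colitis group (1.05 to 1.24), and Fcgr2b, an inhibitory Fc receptor of B cells, myeloid cells and follicular dendritic cells, likewise (1.12 to 1.56). Clu, which follicular dendritic cells express, was called after 1 cycle (1.06), after 2 cycles (1.45) and in recovery (1.08), and its value in acute colitis was 0.04 (adjusted p = 0.951). In acute colitis the other calls were Bst1 (1.82) and the stromal glycoprotein gene Pdpn (1.02), and after 2 cycles Mfge8 (1.08). The deviations of Cxcl13 correlated with those of this list at 0.89 and those of Tnfsf11 at 0.8. Of 8 T cell genes measured, 0 were called in acute colitis, 1 after 1 cycle, 4 after 2 cycles, 3 after 3 cycles and 3 in recovery, with Cd3g, a chain of the T cell receptor complex, at 1.41 to 1.56 in the last 4 groups. Of 7 plasma cell genes 4 were called after 1 cycle and 5 in each of the other chronic groups, while in acute colitis Prdm1, a factor of plasma cell differentiation, was called higher (1.11) and Jchain, which joins IgA and IgM chains, lower (-1.48, adjusted p = 4.48e-05).

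Lists of other cells also moved in acute colitis. Of 8 neutrophil genes 7 were called higher (median 1.91), among them S100a9 and S100a8, the chains of calprotectin (2.49 and 2.21), and the list mean ran from 5.87 to 8.6 against 5.04 to 5.41 in controls. Cd177, the eighth gene, was at 0.81 in acute colitis (adjusted p = 0.0825) and was called in the 4 other groups (1.58 to 2.1). Of 7 monocyte and macrophage genes 5 were called higher, with Ccr2 and Lyz2 at 1.85 and 1.63. Lyz2 was also called in the 4 other groups (1.46 to 1.7), and the mean of that list was 7.01 in controls, 8.07 in acute colitis and 7.76 to 7.92 in the others. All 6 smooth muscle genes were called lower (median -1.79), with list means of 9.42 to 10.5 against 11.3 to 11.72 in controls, and with the contractile actin Actg2 and the muscle filament gene Des at -1.91 and -1.87. In the 4 other colitis groups 0 of them were called. Of 9 dendritic cell genes 1, the integrin Itgax, was called in acute colitis and after 1, 2 and 3 cycles (1.07 to 1.23). Of 8 epithelial genes 1, the chloride exchanger Slc26a3, was called lower in acute colitis (-1.25). The part of these cell type differences in the members' levels was not tested.

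The partners of the member ligands changed less. Of 11 receptors and decoys, 1 was called higher in each of acute colitis, 1 cycle, 2 cycles and 3 cycles, and 0 in recovery. In acute colitis this was Tnfrsf1b, a TNF and lymphotoxin alpha receptor (1.68, SE 0.18, adjusted p = 4.23e-07). After 1 and 2 cycles it was Tnfrsf13c, the BAFF receptor of B cells (1.06 and 1.23, adjusted p = 0.0084 and 0.00279), and after 3 cycles Tnfrsf17, the BAFF and APRIL receptor of plasma cells (1.04, adjusted p = 9.95e-06), which was lower in acute colitis than in the chronic groups (-1.41, adjusted p = 5.65e-09). Ltbr, the lymphotoxin beta receptor of stroma, was 0.34 higher in acute colitis (adjusted p = 0.00555), under 2-fold, and 0.17 higher after 1 cycle (adjusted p = 0.248). Among 8 of 12 related ligands and lymphoid chemokine genes with a probe set of their own, Tnf was called in acute colitis (1.82, adjusted p = 7.4e-05) and the chemokine receptor Cxcr4 in the 4 other groups (1.2 to 1.42). Ccr6, a receptor of B cells and lymphoid tissue inducer cells, was called after 1 and 2 cycles (1.1 and 1.09), and Il7r, the IL-7 receptor of lymphocytes, in recovery (1.11).

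Downstream and neighbouring programmes gave few calls. Of 6 measured genes of the alternative NF-kB route and of lymphoid tissue inducer cells, 0 were called by limma in any comparison, while up to 3 passed the adjusted p alone, after 3 cycles. Of 9 germinal centre and T follicular helper genes, the costimulatory receptor Icos was called after 2 and 3 cycles and in recovery (1.07, 1.17 and 1.13), Cd40, the B cell receptor for T cell help, in acute colitis (1.01, adjusted p = 0.00156), and Rgs13, a regulator of G protein signalling in germinal centre B cells, was lower in acute colitis (-1.55, adjusted p = 0.00619). Of 6 genes of M cells and the RANKL response, Spib, a transcription factor of M cells and also of B cells, was called after 1, 2 and 3 cycles and in recovery (1.33, 1.41, 1 and 1.11) but not in acute colitis (0.08, adjusted p = 0.883). Tnfaip2 was called in acute colitis (2.14), after 3 cycles (1.03) and in recovery (1.25), and the chemokine Ccl9 in acute colitis (1.04).

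The genes whose pattern over all 29 arrays was most like that of a member, by Pearson's r across arrays and groups, were mostly leukocyte genes. Closest to Cr2 were Ms4a1 (0.985), Bank1 (0.984) and H2-Ob (0.976), and closest to Cxcr5 were Ms4a1 (0.958), Fcrl1 (0.954) and Cr2 (0.951). Fcer2a was closest to Fcmr (0.972), Bank1 (0.949) and Ms4a1 (0.942), and Cxcl13 to Cd52 (0.914), Cd22 (0.913) and Btk (0.909). For Ccl19 these were Sipa1, Akna (both 0.929) and Ccr7 (0.921), for Ccr7 they were Ripor2 (0.962), Cnr2 (0.952) and Sipa1 (0.943), for Ltb Wdfy4 (0.965), Septin1 (0.961) and Hvcn1 (0.96), and for Tnfsf13b Sipa1 (0.872), Haao (0.871) and Akna (0.87). Tnfsf11 was closest to Dusp2 (0.829), Il3ra (0.82) and Tnfrsf9 (0.809). Lta reached no more than 0.69 with any gene (Fxyd2, then Lyl1 at 0.68 and Vsig8 at 0.648). These values follow group differences as well as variation within groups, and carry no test.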

How the data were processed

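Colon RNA of 29 mice had been measured on Affymetrix Mouse Gene 1.0 ST arrays, 1 per mouse. The deposited values are on the log2 scale, and the authors made them with RMA (R 2.12.2 per the labels); the genome build is not given in the sources used here. They were used without further normalization or filtering, and 0 columns were left out. Groups came from the labels, and 1 more acute colitis array was not analysed here. The files hold no background signal, and the number of mice limits the precision.

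The 35511 probe sets were fitted with limma 3.58.1 in R 4.3.3, all 6 groups together with no covariate, and p-values were adjusted by Benjamini-Hochberg within each comparison. Calls required adjusted p under 0.05 plus a more than 2-fold difference. Symbols came from the array annotation (21789 probe sets with 1 symbol, 1621 with several, 12101 with none) and promoters from RefSeq (GRCm38.p6). Correlations were tested by permutation within groups (NumPy 2.4.6). The limma step was tested on simulated data.

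The members, gene lists and tests were chosen with earlier results of these data known. Named genes are all members, up to 4 genes of each list with a call and the largest change, and the 3 genes closest to each member. Ltbr, Pdpn, Mfge8, Prdm1 and Cd177 were named after their values were seen. As alternatives, only the compared groups were fitted, arrays were weighted, the letter in each label served as a random block, the prior was trended and robust, probe sets that were dim or without 1 symbol were dropped, all probe sets of a member were averaged, values were quantile normalized again or centred, the array set entered as a covariate, no fold was required, and each array was left out. Fits within 1 array set were added after the data were seen.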

Additional observations from a re-analysis of the deposited data

Results flagged for a closer look

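In 4 of 60 sets of values, 1 per member and group, the highest or lowest array stood far from the others of its group, where chance alone gives about 5% of such sets. After 1 cycle, array K1 had Cxcr5 at 6.9, with the other 4 arrays at 5.95 to 6.2, and Cr2 at 7.52, with the others at 6.61 to 6.83. In the same group array K3 had Ccl19 at 6.57, with the others at 7.24 to 7.48. After 3 cycles, array F1 had Lta at 5.04, with the others at 5.4 to 5.51. K1 was also the array in which 9 members lay above the group mean, and F1 and K3 were below it for all 10.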

How the results depend on the processing

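Of 2756 values of single members recomputed under other settings, 2677 kept their side of the threshold, 57 no longer passed and 22 newly passed. Of the values that passed before or after, 0 changed sign. Some that did not pass changed sign: Fcer2a in recovery against 2 cycles was at -0.26 to 0.24 with single arrays left out. A fit of the compared groups only left 1 member called in recovery, and array weights left 0 in acute colitis. With the 2 sets of arrays as a covariate, 2 members were called after 2 cycles, 0 after 3 cycles and 0 in recovery. Over all 35511 probe sets that fit called 216, 110 and 71 higher in the same groups. Within the low arrays 0 members were called in acute colitis and 2 after 2 cycles. The adjusted p alone gave 2 members in acute colitis, 8 after 1 cycle, 7 after 3 cycles, 6 in recovery and 4 in acute against chronic colitis. The cause of these changes was not tested, beyond the fewer arrays within a set and the wider rule. Of the 45 pairs, 16 passed within the 14 low arrays. Leaving out each array gave 0 to 1 members called in acute colitis, 3 to 6 after 1 cycle, 3 to 5 after 2 cycles, 1 to 5 after 3 cycles, 0 to 6 in recovery, 2 to 2 in acute against chronic colitis and 0 to 0 in recovery against 2 cycles. The count was 0 in acute colitis without B3, B4 or L1. It was 1 after 3 cycles without G2 or L1 and 2 without A1. In recovery it was 0 without A5, M1, M3 or N2, 1 without A1 or L1, 5 without N3 and 6 without M5. Lta and Cxcr5 were dropped when dim probe sets were left out. No paired analysis was possible because each mouse belongs to 1 group and the groups share no replicate names.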
